A study of Homo sapiens with 6 samples.

Results

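The tumor necrosis factor (TNF) superfamily consists of trimeric ligands, most of them anchored in the membrane, and the cell-surface receptors that bind them. Receptors with an intracellular death domain can recruit FADD or TRADD and start caspase-dependent death, other receptors recruit TRAF adaptors and activate NF-kB, and decoy receptors bind ligand without passing on a full signal. The family is best known from immune cells, bone and ectodermal appendages, and *TNFRSF8* (CD30) is also a known surface antigen of embryonal carcinoma and undifferentiated human pluripotent cells. The members examined here were the genes with a *TNFRSF* or *TNFSF* symbol together with *CD27*, *CD40*, *CD70*, *FAS*, *FASLG*, *LTA*, *LTB*, *EDAR*, *EDA2R* and *NGFR*. The count table held 42 such genes among 59050, 27 receptors and 15 ligands, while *LTBR*, which the same definition names, was not analysed here. The family was selected on the near-complete loss of *TNFRSF8* counts in definitive endoderm, so the values of *TNFRSF8* are given as a description without any test and it is left out of every count of members that changed.

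RNA-seq counts were examined from the embryonic stem cell line HUES8, an established human line, at 3 stages with 2 libraries per stage. PSC were undifferentiated cells kept in mTeSR1 on Matrigel. D2 cells had been induced toward endoderm for 2 days, and DE cells were labelled as definitive endoderm with no day given in the labels. The labels give 1 protocol for both, with activin A at 100 ng/mL and, for the first 24 h, with CHIR99021, which turns on WNT signaling by blocking GSK3, and then without CHIR99021 for 2 to 4 days. The D2 cells, at 2 days, cannot have had the whole of this course. For the part without CHIR99021 the methods of the study give 3 to 4 days. The amount of CHIR99021 is labelled 2.5, given as millimolar in the labels and as micromolar in the methods of the study. By those methods the cells had first been used for a metabolite extraction, and the remainder gave the RNA. All libraries came from 1 line, and nothing in the labels says that the 2 libraries of a stage were separate cultures, so that p-values measure the spread between these libraries, which may be technical. The total count was 12351684 and 15849872 in PSC, 15000970 and 14843365 at D2, and 15490713 and 15970973 in DE. With 2 libraries against 2, no permutation of the libraries can reach a p of 0.05, so every p-value below rests on the quasi-likelihood model of edgeR across all 18126 genes tested, with Benjamini-Hochberg adjustment.

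The stage labels were checked against markers. The summed level of 8 definitive endoderm markers (*SOX17*, *FOXA2*, *CXCR4*, *CER1*, *GATA4*, *GATA6*, *EOMES* and *HHEX*) was 12.3 and 13.8 CPM (counts scaled to library size with TMM factors) in the PSC libraries, 4270 and 4331 at D2, and 7167 and 7802 in DE. Most of this sum after PSC was *CER1*, at 3625 and 3652 CPM at D2 and 5433 and 6167 in DE. Only *EOMES* of this list was lower in DE than at D2, at 361 and 327 CPM against 467 and 505. The 8 pluripotency markers summed to 2724 and 3079 CPM in PSC, 2230 and 2199 at D2, and 1592 and 1508 in DE. Of these 8 genes 5 fell in DE against PSC, while *LIN28A* was at 295 and 390 CPM in PSC and 678 and 575 in DE and *TDGF1* at 302 and 340 in PSC and 459 and 485 in DE. Since many members are leukocyte genes, 10 leukocyte markers were summed as well, and reached between 0.788 and 2.02 CPM in every library, with none of the 10 passing the filter on low counts. Markers of mesoderm and primitive streak were highest at D2, at 559 and 598 CPM against 152 and 150 in PSC and 245 and 218 in DE. Most of this sum was *KDR* in PSC, at 141 and 139 CPM, while *MIXL1* had the highest CPM of the list at D2 (254 and 284) and in DE (189 and 159). The 7 trophoblast markers summed to 2.19 and 2.51 CPM in PSC, 9.52 and 9.39 at D2, and 101 and 85.2 in DE, with *CGB5* at 0 in every library. In DE this sum was nearly all *GATA3*, at 100.3 and 84.5 CPM, while *TFAP2A* went from 3.02 and 2.98 CPM at D2 to 0.974 and 0.579 and *CDX2* from 0.984 and 0.648 to 0 and 0.0643. The 5 endothelial markers, led by *VWF*, were at 0.876 and 0.515 CPM in PSC, 2.76 and 3.24 at D2, and 17.2 and 13.8 in DE. The 5 neural ectoderm markers summed to 116 and 108 CPM in PSC, 231 and 205 at D2, and 311 and 318 in DE, where *PAX6* went from 0.984 and 1.49 CPM at D2 to 148 and 146 in DE and *NES* from 200.4 and 179.7 to 149.7 and 160.4. The 6 fibroblast markers summed to 113 and 124, 112 and 111, and 43.4 and 38.1 CPM, with *THY1* at 80.1 and 91.9 CPM in PSC, 37.2 and 35.0 at D2, and 4.26 and 3.41 in DE, and *COL1A1* at 12.6 and 12.4, 38.6 and 33.0, and 37.0 and 32.6. The part of these other cell types in the values below was not tested, and in bulk RNA fewer cells of a type and less RNA per cell cannot be told apart.

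*TNFRSF8* had 167 and 246 counts in the PSC libraries, 48 and 37 at D2, and 0 and 1 in DE. Every PSC library lay above every D2 library and every D2 library above every DE library. The mean level was 15.2 ± 0.845 CPM in PSC, 2.77 ± 0.533 at D2 and 0.0322 ± 0.0455 in DE (SD, n = 2 libraries per stage), and 1 DE library had no count, which allows up to 0.183 CPM, the level of 3 counts at its depth. The summed normalised counts of D2 were 0.181 times those of PSC (95% interval 0.141 to 0.229, counting error only). For DE the ratio to PSC was 0.00204 (0.000052 to 0.0114), or 0.0042 without DE replicate 1, and DE was at 0 without replicate 2. The drop was therefore already large at D2, and about 1 count was left in DE. The family was selected on this loss, so the intervals above describe counting error and lend no support to it. The gene lies on chromosome 1 (GRCh38, chr1:12063303-12144207) next to *TNFRSF1B*, the second receptor of TNF, which had between 0 and 9 counts in every library. Its ligand *TNFSF8* (CD30 ligand) had 0 and 0 counts in PSC, 2 and 0 at D2, and 1 and 3 in DE, so that receptor and ligand were not both transcribed above a few counts at any stage.

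*TNFSF11*, which encodes the bone-resorption cytokine RANKL, was the only tested ligand that was highest in PSC. Its counts were 153 and 215 in PSC, 24 and 25 at D2, and 9 and 1 in DE. All libraries of each stage lay below all libraries of the stage before, with the 2 DE libraries well apart from each other. It fell by 3.09 ± 0.247 (SE) on the log2 scale at D2, 8.50-fold (edgeR, adjusted p = 2.73e-11), and by a further 2.32 ± 0.476 in DE, 5.00-fold (edgeR, adjusted p = 1.41e-04). The fall in DE was -1.51 without DE replicate 2 and -4.45 without DE replicate 1 on the log2 scale and passed the call rule both times.

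Promoters were printed for *TNFRSF8* and *TNFSF11* because these were the members with the deepest fall from PSC to DE. RefSeq promoter windows were matched for 27 of the 42 members, and the 250 bases before the annotated start are given 5′ to 3′ on the strand of the gene (GRCh38.p14, chr1:12063053-12063302 for *TNFRSF8* and chr13:42562486-42562735 for *TNFSF11*). Both strands were searched for an octamer (ATGCAAAT), a GATA motif (AGATAA), a forkhead motif (TGTTTAC), a T-box motif (TCACACC), the GC box (GGGCGG), the kappa B motif of NF-kB with its central base left free and an AP-1 motif (TGANTCA), and capitals mark each match. Among all 27305 windows of this length these letters were present in 1.67%, 9.4%, 3.01%, 2.73%, 42.2%, 0.553% and 6.57%, respectively. The *TNFRSF8* window held 1 GC box beginning at position -50 from the start, 9 CpG sites and 61.6% GC. The *TNFSF11* window held 1 GATA motif at -82, 2 CpG sites and 37.6% GC, against medians of 10 CpG sites and 57.6% GC over all windows. A match describes the letters of the window and not a bound site.
TNFRSF8: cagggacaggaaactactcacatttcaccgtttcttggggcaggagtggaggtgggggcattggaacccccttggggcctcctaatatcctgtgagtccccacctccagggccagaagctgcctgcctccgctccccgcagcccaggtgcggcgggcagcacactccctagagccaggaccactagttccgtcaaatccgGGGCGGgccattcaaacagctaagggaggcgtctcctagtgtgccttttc
TNFSF11: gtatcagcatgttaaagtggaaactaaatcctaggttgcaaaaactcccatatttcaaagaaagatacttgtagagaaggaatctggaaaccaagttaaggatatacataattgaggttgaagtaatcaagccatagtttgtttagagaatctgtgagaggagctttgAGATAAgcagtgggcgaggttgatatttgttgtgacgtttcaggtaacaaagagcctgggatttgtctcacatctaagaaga

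The first step, from PSC to D2, was examined for the whole family. Of the 41 members other than *TNFRSF8*, 25 passed the filter on low counts, and 13 of these, 9 of 17 receptors and 4 of 8 ligands, rose at D2 against PSC while 1, *TNFSF11*, fell. Among all tested genes 14.3% rose and 8.03% fell by the same rule, which asked for 2-fold or more at an adjusted p under 0.05. The median log2 fold change was 1.30 over these 25 members and 0.021 over all tested genes. The 4 ligands that rose had 1 to 3 counts in PSC, and the level of all ligands together was 15.2 and 15.8 CPM in PSC and 9.58 and 8.87 at D2. A member that is low in PSC passed the filter only if it was higher later, so these counts describe the members and are not evidence of a common direction. Scaling by library size alone moved the median of all genes to 0.13, and changes are given relative to the TMM scale. The count of 13 fell to 6 when at least 10 counts were required in every library, which leaves out members near 0 in PSC. Fewer members are tested under that filter, so the lower count does not by itself mean a lower share. The count was also 6 under a fold-change rule on TPM.

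**Figure D1:**
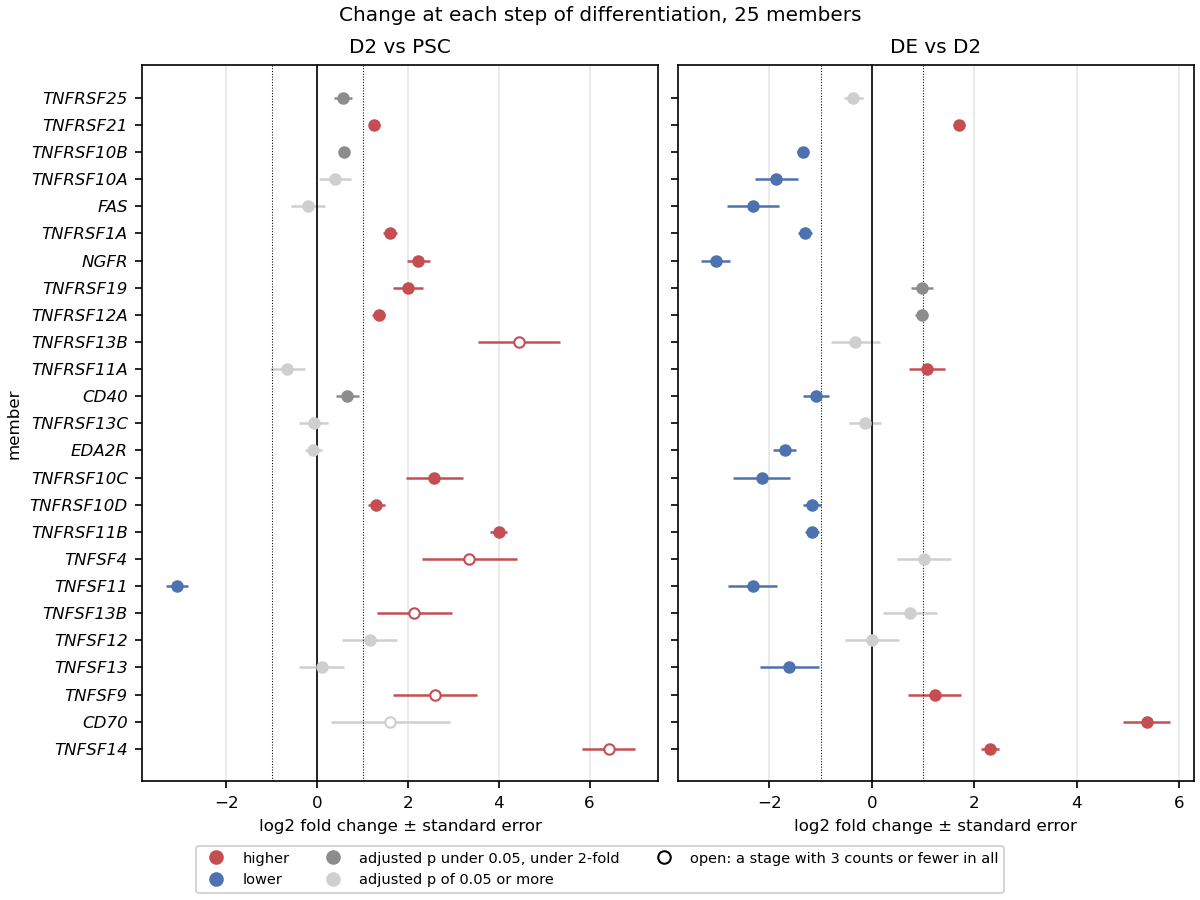
Log2 fold change with its standard error (x axis) of the 25 tested members other than *TNFRSF8* (y axis, grouped as death domain receptors, TRAF-binding receptors, decoy receptors and ligands) at D2 against PSC and in DE against D2, with the 2-fold limits dotted and open points for members with a stage of at most 3 counts in all, whose fitted value depends on the prior count. In D2 13 members lie on the right as called and only *TNFSF11* on the left, whereas in DE 12 members are called lower and 5 higher.

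The decoy receptor *TNFRSF11B*, osteoprotegerin, which binds RANKL and TRAIL, gave the largest rise at D2 among members with over 3 counts in PSC. Its counts were 35 and 30 in PSC, 576 and 613 at D2, and 243 and 308 in DE, with no overlap between the stages. It rose 15.9-fold at D2 (log2 3.99 ± 0.186, edgeR, adjusted p = 2.22e-16) and fell 2.24-fold in DE (log2 -1.16 ± 0.135, adjusted p = 2.61e-08), where it stayed 7.10-fold above PSC. The fall was under 2-fold without DE replicate 1 (log2 -0.95). Thus, between PSC and D2 the transcript of the ligand RANKL went down while that of its soluble decoy went up. *TNFRSF11A*, the signaling receptor RANK, had 20 and 26 counts in PSC, 13 and 20 at D2, and 43 and 30 in DE. It rose 2.11-fold from D2 to DE (log2 1.08 ± 0.356, adjusted p = 0.011), a call that did not hold without D2 replicate 1 (adjusted p = 0.11), without DE replicate 1 (0.116) or by DESeq2 (0.119).

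Receptors of TRAIL were all most abundant at D2. *TNFRSF10B*, which carries a death domain, had 350 and 432 counts in PSC, 671 and 675 at D2, and 297 and 255 in DE. It was 1.5-fold higher at D2 than in PSC (log2 0.59 ± 0.109, adjusted p = 5.42e-05), below the 2-fold limit, and fell 2.54-fold in DE (log2 -1.35 ± 0.113, adjusted p = 5.12e-11). *TNFRSF10A*, the other death domain receptor of TRAIL, had 18 and 22 counts in PSC, 34 and 26 at D2, and 9 and 8 in DE, and of the 2 steps only its fall from D2 to DE was called (3.64-fold, log2 -1.86 ± 0.417, adjusted p = 3.84e-04). The decoys, which lack a working death domain, were called in both steps. *TNFRSF10D* counts were 63 and 72, 179 and 202, and 80 and 97 in the order of the stages, a rise of 2.46-fold at D2 (adjusted p = 8.2e-07) and a fall of 2.24-fold in DE (adjusted p = 1.7e-06), which was under 2-fold without DE replicate 1 (log2 -0.98). *TNFRSF10C*, at 1 and 4, 18 and 17, and 4 and 4 counts, rose 5.96-fold (log2 2.57 ± 0.627, adjusted p = 0.00119), or 11.9-fold without PSC replicate 2, and fell 4.44-fold (log2 -2.15 ± 0.563, adjusted p = 0.00179), and neither passed the threshold in DESeq2 (adjusted p = 0.0572 and 0.0929). The ligand TRAIL itself, *TNFSF10*, had at most 3 counts in any library. The 4 receptor genes are adjacent in the genome. The exons of *TNFRSF10A*, *TNFRSF10B* and *TNFRSF10C* overlap those of other genes in part, which makes the counts of these genes uncertain. The overlaps with annotated genes of the same strand were 16.9% and 16.1% of the exonic bases for *TNFRSF10C*, and those of the opposite strand 9.1% and 7.7% for *TNFRSF10A* and 7.5% for *TNFRSF10B*, the last with *RHOBTB2*.

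**Figure D2:**
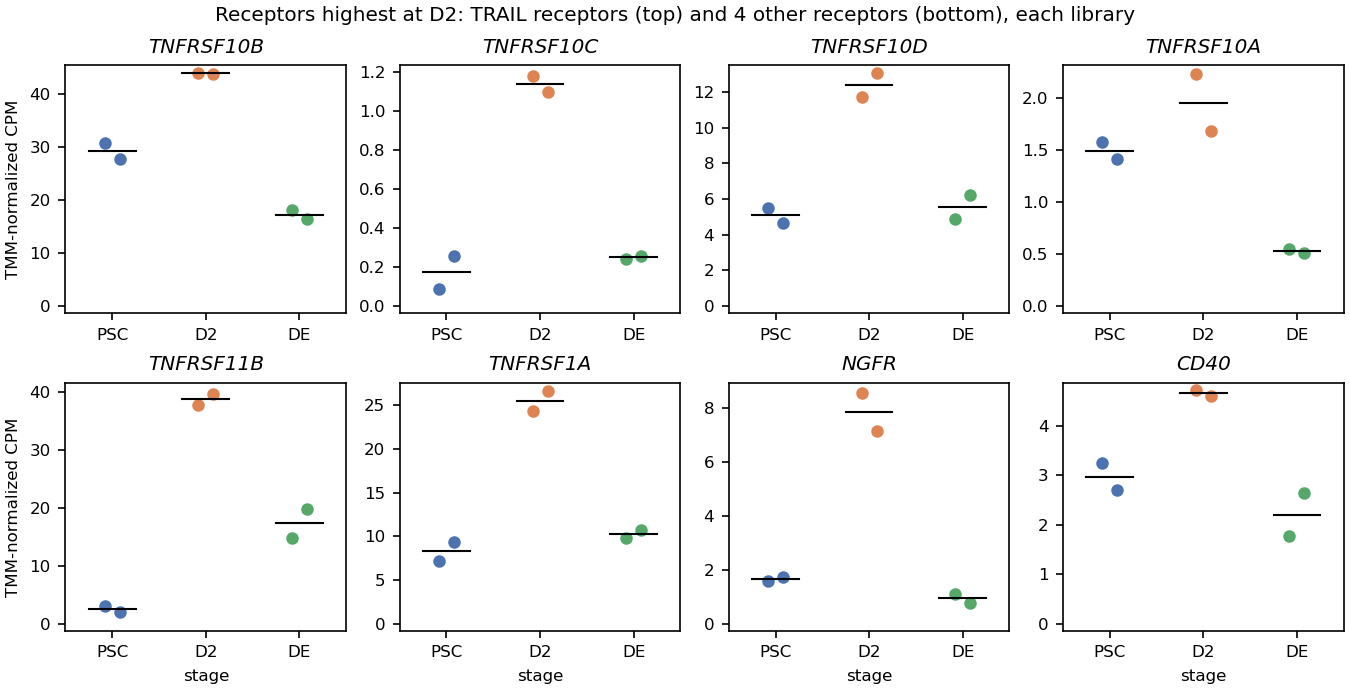
TMM-normalised CPM (y axis) of 8 receptors in each library of the 3 stages (x axis), with points for libraries and bars for the mean of 2. In all 8 panels both D2 libraries lie above both PSC libraries and both DE libraries, as for *TNFRSF11B* at 37.8 and 39.7 CPM at D2 against 3.07 and 1.93 in PSC.

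*NGFR* and *TNFRSF1A*, which carry a death domain, also rose at D2 and fell in DE. *NGFR*, the low-affinity neurotrophin receptor, had 18 and 27 counts in PSC, 130 and 110 at D2, and 18 and 12 in DE. It rose 4.68-fold at D2 (log2 2.23 ± 0.257, adjusted p = 3.49e-08) and fell 8.28-fold in DE (log2 -3.05 ± 0.275, adjusted p = 2.18e-10), and 22.3% of its exonic bases overlap an annotated gene of the opposite strand. *TNFRSF1A*, through which soluble TNF mainly signals, had 82 and 146, 372 and 411, and 162 and 167 counts, and rose 3.04-fold (adjusted p = 3.93e-10) before it fell 2.48-fold (adjusted p = 5.29e-09). Its ligand TNF is outside the chosen definition and had 2 counts in 1 DE library and 0 in the other 5. *TNFRSF25*, a receptor of T cells, changed less, with 79 and 96 counts in PSC, 181 and 115 at D2, and 125 and 115 in DE. It was 1.48-fold higher at D2 (edgeR, adjusted p = 0.0171), which did not pass by DESeq2 (adjusted p = 0.161). Nor did it pass without D2 replicate 1 (log2 0.20) or without PSC replicate 2 (log2 0.47). In DE against D2 it was at log2 -0.36 (edgeR, adjusted p = 0.094). Without D2 replicate 1 this was 0.01, and without D2 replicate 2 it was -0.66. Of its exonic bases 9.0% overlap *ESPN* on the opposite strand.

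*FAS* and *TNFRSF21* stood apart from this pattern. *FAS*, the receptor of Fas ligand, had 25 and 24 counts in PSC, 20 and 29 at D2, and 3 and 7 in DE. The PSC and D2 libraries overlapped, and the DE libraries lay below both. It fell 4.99-fold from D2 to DE (log2 -2.32 ± 0.507, adjusted p = 2.97e-04), or 8.30-fold without DE replicate 2, while *FASLG*, its ligand, had 1 count in 1 D2 library and 0 elsewhere. *TNFRSF21*, a death domain receptor studied mostly in neurons and T cells, had 126 and 179 counts in PSC, 391 and 438 at D2, and 1555 and 1271 in DE. Its libraries rose without overlap at each stage, 2.39-fold at D2 (log2 1.26 ± 0.128, adjusted p = 3.11e-09) and 3.27-fold from D2 to DE (log2 1.71 ± 0.106, adjusted p = 9.06e-14), so that it was 7.80-fold higher in DE than in PSC.

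Of the TRAF-binding receptors, *TNFRSF12A* (Fn14, the receptor of TWEAK) was the most abundant member per length at every stage. Its counts were 155 and 205 in PSC, 593 and 455 at D2, and 991 and 1147 in DE. Per kilobase of deposited gene length this was 7.24 ± 0.150, 18.5 ± 3.62 and 36.3 ± 5.15 CPM (SD, n = 2), or 18.9%, 24.3% and 39.6% of the sum over the members. It rose 2.56-fold at D2 (log2 1.35 ± 0.139, adjusted p = 3.96e-09) and was 1.96-fold higher in DE than at D2 (adjusted p = 7.64e-08), just below the 2-fold limit. In PSC it was followed by *TNFRSF10B* at 5.84 ± 0.405 and *TNFSF11* at 4.98 ± 0.11 CPM per kilobase, at D2 by *TNFRSF11B* at 15.4 ± 0.533, a difference within the spread of *TNFRSF12A*, and by *TNFRSF10B* at 8.76 ± 0.0461, and in DE by *TNFRSF21* at 24.5 ± 2.54 and *TNFRSF11B* at 6.89 ± 1.41. The ligand of Fn14, *TNFSF12* (TWEAK), stayed between 2 and 15 counts, with 2 and 7 in PSC, 12 and 11 at D2, and 15 and 9 in DE, and passed the threshold in no comparison, with 12.1% of its exonic bases shared with the readthrough gene *TNFSF12-TNFSF13*.

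*TNFRSF19* (TROY), known as a WNT target in intestinal stem cells, rose with *TNFRSF12A*. It had 9 and 15 counts in PSC, 52 and 58 at D2, and 99 and 126 in DE, a 4.00-fold rise at D2 (log2 2.00 ± 0.323, adjusted p = 8.25e-06) and 1.97-fold more in DE (adjusted p = 4.06e-04). *EDA2R*, which binds the ectodysplasin A2 isoform, ran the other way, with 114 and 117, 120 and 130, and 31 and 49 counts. Its PSC and D2 levels overlapped (log2 -0.09 ± 0.192, adjusted p = 0.732), and it fell 3.24-fold in DE (log2 -1.70 ± 0.226, adjusted p = 3.02e-07). The ligand *EDA*, a superfamily gene outside the definition, had 20 and 25, 11 and 20, and 180 and 148 counts and rose 10.1-fold from D2 to DE (adjusted p = 1.11e-11), while *EDAR*, the receptor of the A1 isoform, had 5 and 4, 10 and 6, and 1 and 0 counts.

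Receptors known from B cells were low. *CD40* had 37 and 42 counts in PSC, 72 and 71 at D2, and 29 and 41 in DE, was 1.58-fold higher at D2 (adjusted p = 0.0325) and fell 2.12-fold in DE (log2 -1.08 ± 0.259, adjusted p = 7.45e-04), and its ligand *CD40LG* had 1 count in all libraries together. The value at D2 did not pass the threshold without PSC replicate 2 (adjusted p = 0.205), D2 replicate 1 (0.0944) or D2 replicate 2 (0.0734), or by DESeq2 (0.258), and the fall in DE was under 2-fold without DE replicate 1 (log2 -0.80). *TNFRSF13B* (TACI) had 1 and 0 counts in PSC, 18 and 12 at D2, and 14 and 11 in DE, a ratio of 26.4 between D2 and PSC with a counting interval of 4.38 to 1075 (edgeR, adjusted p = 1.79e-04), or 11.2 without PSC replicate 2, and PSC was at 0 without replicate 1. Of its exonic bases 17.3% overlap another annotated gene of the same strand. *TNFRSF13C* (BAFF receptor) stayed at 20 to 39 counts and its libraries overlapped in all comparisons, and *TNFRSF17* (BCMA) had no count.

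**Figure D3:**
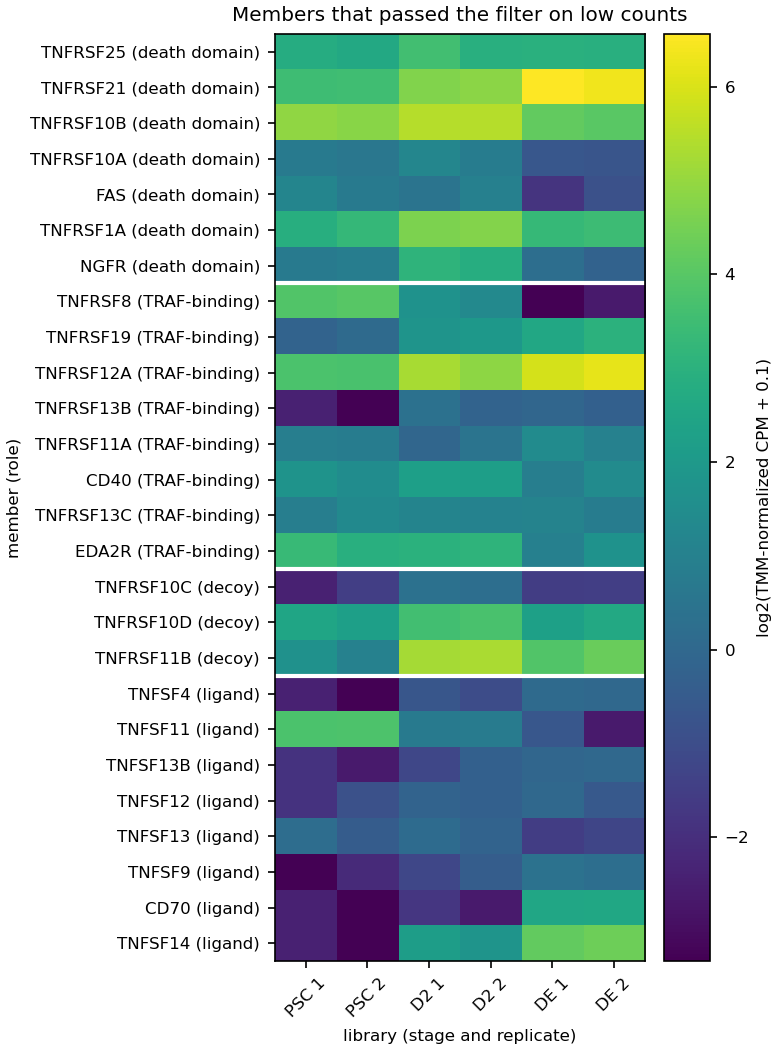
Level of the 26 tested members (rows, with the role of each) in the 6 libraries (columns), shown as log2 of the TMM-normalised CPM plus 0.1. White lines separate the roles, and *TNFRSF12A* and *TNFRSF21* are the brightest rows in DE.

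From D2 to DE, 5 of the 9 receptors that had risen fell again, and 3 ligands rose while 2 fell. In DE against D2, 5 of the 25 tested members were higher and 12 lower, against 12.4% and 16.1% of all tested genes, and their median log2 fold change was -0.36 against -0.02 over all genes. A member low in DE passed the filter on low counts only if it was higher at another stage. These counts too describe the members and are not evidence of a common direction. This comparison and the one before share the D2 libraries, so that a high D2 value enters both with opposite sign, and the values are given side by side only. Requiring 10 counts in every library left 2 higher and 7 lower members among fewer tested, and the TPM rule 6 lower.

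Among the tested members, the largest ratio to PSC, both at D2 and in DE, was that of *TNFSF14* (LIGHT), a ligand of HVEM and of the lymphotoxin beta receptor. Its counting intervals overlap those of *TNFRSF13B* at D2 and of *CD70* in DE, so that the order is uncertain. It had 1 and 0 counts in PSC, 67 and 52 at D2, and 295 and 320 in DE. The stages did not overlap. The ratio of D2 to PSC was 105 with a counting interval of 18.4 to 4163 (edgeR, adjusted p = 2.7e-10), or 44.3 without PSC replicate 2, and PSC was at 0 without replicate 1. DE was 4.96-fold above D2 (log2 2.31 ± 0.179, adjusted p = 1.06e-11). *CD70*, the ligand of CD27, had 1 and 0 counts in PSC, 3 and 1 at D2, and 92 and 90 in DE, and was 41.1-fold higher in DE than at D2 (log2 5.36 ± 0.464, adjusted p = 9.56e-11), or 78.1-fold without D2 replicate 1. Thus *CD70* was near 0 until D2, while *TNFSF14* was already well counted there. *TNFSF9*, the ligand of the T cell costimulator encoded by *TNFRSF9*, had 0 and 2 counts in PSC, 5 and 10 at D2, and 20 and 17 in DE. It was 2.34-fold higher in DE than at D2 (log2 1.23 ± 0.514, adjusted p = 0.0414), a call lost with the replicate number as a block (adjusted p = 0.0575), by DESeq2 (0.317) and without any 1 of the D2 or DE libraries (0.0564 to 0.307). At D2 against PSC its ratio was 6.59 (interval 1.53 to 59.4, adjusted p = 0.0214), lost without PSC replicate 1 (0.162, with a ratio of 3.80), without D2 replicate 2 (0.198) and by DESeq2 (0.129), and PSC was at 0 without PSC replicate 2.

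**Figure D4:**
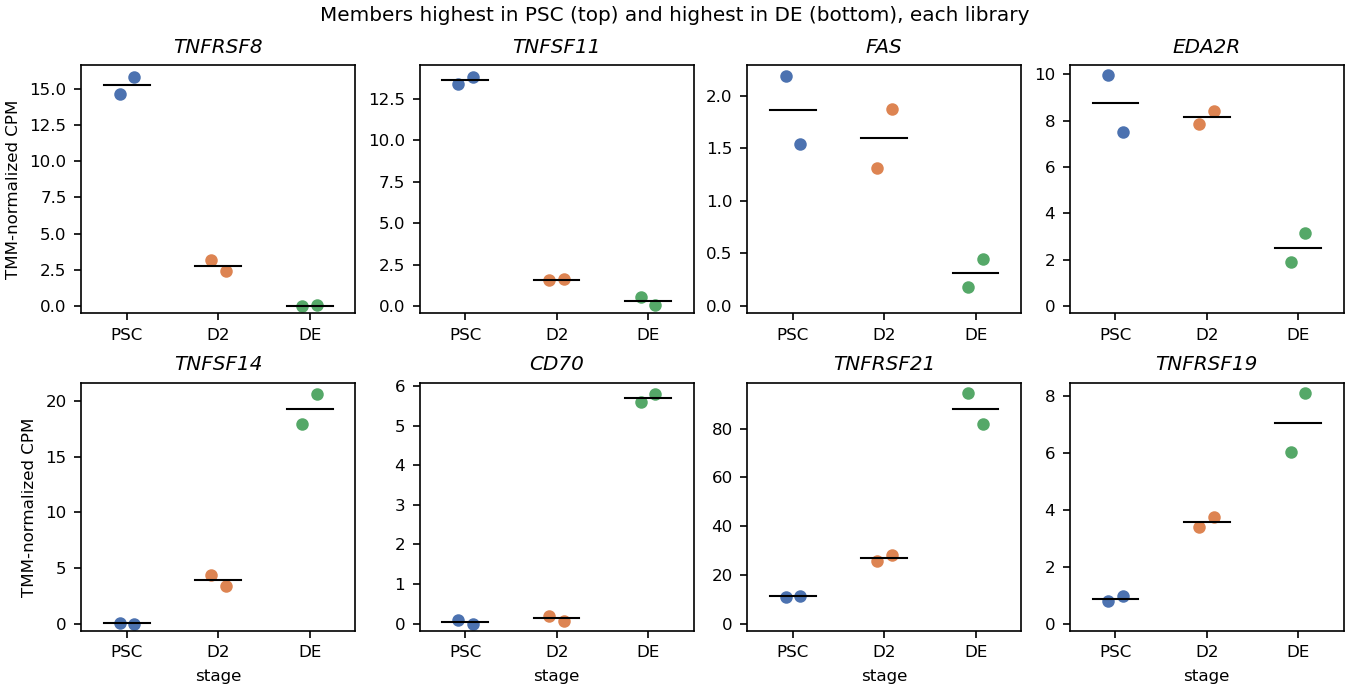
TMM-normalised CPM (y axis) in each library of the 3 stages (x axis) for 4 members highest in PSC (top) and 4 highest in DE (bottom), with points for libraries and bars for the mean of 2. *TNFRSF8* goes from 14.6 and 15.8 CPM in PSC to 0 and 0.0643 in DE, and *CD70* from 0.0876 and 0 in PSC to 5.60 and 5.79 in DE.

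*TNFSF9*, *CD70* and *TNFSF14* are neighbors on chromosome 19 (GRCh38, chr19:6531026-6535924, chr19:6583183-6604103 and chr19:6661253-6670588, GENCODE version 44), a stretch that was looked at after their values were known. The 4 flanking genes are given for comparison. *DENND1C* had 33 and 26 counts at D2 and 128 and 139 in DE (4.33-fold, adjusted p = 1.09e-08), *C3* had 16 and 20 in PSC, 133 and 129 at D2 and 291 and 285 in DE, *GPR108* had 122 and 241, 490 and 543, and 763 and 736, and *TUBB4A*, which lies next to *TNFSF9*, had 1 to 16 counts with overlapping stages. The promoters of *TNFSF14* (GRCh38.p14, chr19:6670161-6670410, minus strand) and *TNFSF9* (chr19:6530776-6531025) are shown because both ligands were called higher at each step. For *TNFSF9* those calls were lost under several alternatives, as given above, and the promoter of *CD70* is not shown. The promoter of *TNFRSF21* (chr6:47309906-47310155, minus strand) is shown as that of a receptor whose libraries rose without overlap at each stage. The *TNFSF14* window lies before the RefSeq start but inside the GENCODE span of the gene given above, so the 2 sources place its start differently. The search, the strand of print and the capitals are as for *TNFRSF8*. The *TNFSF14* window held 1 GC box at -92, 1 AP-1 motif at -166 and 9 CpG sites, that of *TNFSF9* 2 GC boxes and 23 CpG sites, and that of *TNFRSF21* 1 GC box at -52, read on the other strand, and 20 CpG sites.
TNFSF14: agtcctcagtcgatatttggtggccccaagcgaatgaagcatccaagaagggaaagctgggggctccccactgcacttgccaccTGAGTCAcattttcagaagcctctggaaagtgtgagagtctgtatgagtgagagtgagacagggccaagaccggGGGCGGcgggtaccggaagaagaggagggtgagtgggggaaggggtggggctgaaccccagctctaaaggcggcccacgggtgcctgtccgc
TNFSF9: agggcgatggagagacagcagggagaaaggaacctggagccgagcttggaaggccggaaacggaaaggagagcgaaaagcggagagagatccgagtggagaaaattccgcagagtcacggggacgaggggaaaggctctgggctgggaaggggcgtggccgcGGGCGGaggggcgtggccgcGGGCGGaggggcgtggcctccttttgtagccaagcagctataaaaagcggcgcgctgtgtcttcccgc
TNFRSF21: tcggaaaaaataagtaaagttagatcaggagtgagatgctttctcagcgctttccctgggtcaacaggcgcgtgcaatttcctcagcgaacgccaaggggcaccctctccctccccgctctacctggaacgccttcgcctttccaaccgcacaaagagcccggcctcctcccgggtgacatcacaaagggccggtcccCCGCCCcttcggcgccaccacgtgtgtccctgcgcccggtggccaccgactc

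The remaining ligands were low. *TNFSF4* (OX40 ligand) had 1 and 0 counts in PSC, 8 and 6 at D2, and 16 and 14 in DE, and its ratio of D2 to PSC was 12.3 (interval 1.87 to 520, edgeR adjusted p = 0.00941, lost without PSC replicate 2 at 0.173, where the ratio was 5.21, with PSC at 0 without PSC replicate 1, and the call also lost without D2 replicate 1 at 0.0679 and by DESeq2 at 0.1). *TNFSF13B* (BAFF) had 2 and 1, 5 and 11, and 14 and 14 counts, with a ratio of D2 to PSC of 4.68 (interval 1.34 to 25.1, edgeR adjusted p = 0.0333), and this was lost without any 1 of 5 libraries, all but D2 replicate 1, and by DESeq2 (adjusted p between 0.0602 and 0.324), with ratios from 2.94 without D2 replicate 2 to 8.10 without PSC replicate 1. *TNFSF13* (APRIL) had 12 and 10, 15 and 12, and 4 and 5 counts, fell 3.06-fold from D2 to DE (edgeR adjusted p = 0.0177), and lost that call by DESeq2 (0.181) and without D2 replicate 1 (0.129), DE replicate 1 (0.126) or DE replicate 2 (0.0629). Of its exonic bases 55.5% also belong to the readthrough gene *TNFSF12-TNFSF13*, so that its counts are uncertain.

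In DE against PSC, the comparison from which the family was selected, 10 of the 25 members were higher and 5 lower, beside 20.5% and 18.8% of all tested genes. Here too a member low in PSC passed the filter on low counts only if it was higher later. The counts therefore describe the members and are not evidence of a common direction. Requiring 10 counts in every library left 3 higher and 1 lower among fewer tested members, the TPM rule gave 6 and 2, and DESeq2 gave 3 lower. *TNFSF14* was at 518 times its PSC level (interval 92.7 to 20510), *CD70* at 153 times (27.2 to 6093) and *TNFSF9* at 15.6 times (4.02 to 134), each against 1 or 2 counts in PSC. Without PSC replicate 2 the ratio was 219.9 for *TNFSF14* and 65.1 for *CD70*, without PSC replicate 1 it was 9.0 for *TNFSF9*, and without the other PSC library PSC was at 0 for each. *TNFRSF19* was 7.87-fold and *TNFRSF21* 7.80-fold higher. *TNFSF11* was 42.5-fold lower, or 24.3-fold without DE replicate 2 and 185.5-fold without DE replicate 1. *FAS* was 5.74-fold lower, or 9.56-fold without DE replicate 2, *EDA2R* 3.45-fold and *TNFRSF10A* 2.77-fold, the last not by DESeq2 (adjusted p = 0.072). *TNFSF13* was 2.87-fold lower (edgeR, adjusted p = 0.0262), a call lost by DESeq2 (0.188) and without PSC replicate 1 (0.218), DE replicate 1 (0.147) or DE replicate 2 (0.0726). The level of all members together was 129.5 ± 3.39 CPM in PSC, 238 ± 5.94 at D2 and 262 ± 7.89 in DE (SD, n = 2).

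The 16 members that did not pass the filter had at most 10 counts in any library. They were the receptors *TNFRSF18*, *TNFRSF4*, *TNFRSF14*, *TNFRSF9*, *TNFRSF1B*, *TNFRSF17*, *TNFRSF6B*, *EDAR* and *CD27* and the ligands *FASLG*, *TNFSF18*, *TNFSF10*, *LTA*, *LTB*, *TNFSF15* and *TNFSF8*. *TNFRSF6B* and *TNFRSF17* were at 0 in every library, which allows up to 0.263 CPM in the shallowest library, the level of 3 counts there, and all exonic bases of *TNFRSF6B* lie also in the readthrough gene *RTEL1-TNFRSF6B*. Most of these genes are characteristic of T and B cells. Several ligands were counted at stages where their receptor was near 0. These counts are uncertain, since 42.5% of the exonic bases of *CD27* overlap *CD27-AS1* and 13.3% of those of *TNFRSF14* overlap *TNFRSF14-AS1*, both on the opposite strand, and the strand setting is not known. In DE, *CD70* was at 5.60 and 5.79 CPM while *CD27* had 2 and 0 counts, *TNFSF14* was at 18.0 and 20.6 CPM while *TNFRSF14* (HVEM) had 2 and 3 counts, and *TNFRSF9* had 0 and 2 counts. The other signaling receptor of LIGHT, *LTBR*, was not analysed here, so that the receptors of *TNFSF14* were covered only in part. Among 31 ligand and receptor pairs with both genes in the table, both partners reached 1 CPM in both libraries for 3 pairs in PSC (*TNFSF11* with *TNFRSF11A*, *TNFSF11* with *TNFRSF11B*, *EDA* with *EDA2R*), 1 at D2 (*TNFSF11* with *TNFRSF11B*) and 1 in DE (*EDA* with *EDA2R*).

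Signaling genes below the receptors were counted in the same way. Of 70 adaptors, death effectors, NF-kB subunits, inhibitors, target genes, linear ubiquitin ligase subunits and sheddases, 62 were tested. At D2 13 rose and 2 fell, with a median log2 fold change of 0.13, and from D2 to DE 13 rose and 6 fell, with a median of 0.18. In DE against PSC 17 rose and 3 fell. The counts of genes that fell were unstable, running from 1 to 4 at D2 across the alternatives, from 3 to 9 in DE against D2, and from 3 to 6 in DE against PSC, where 6 fell without DE replicate 2. The background shares are those given for the members. Of the 9 inhibitors of NF-kB 0 rose and 0 fell at D2, beside 14.3% and 8.03% of all tested genes. *NFKBIA* and *TNIP1* were higher and *TNFAIP3* lower there at an adjusted p under 0.05, with changes under 2-fold. *ADAM17*, 1 of the 2 sheddases beside *ADAM10*, was higher at D2 in the same way. No share over all genes is given for such smaller changes.

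**Figure D5:**
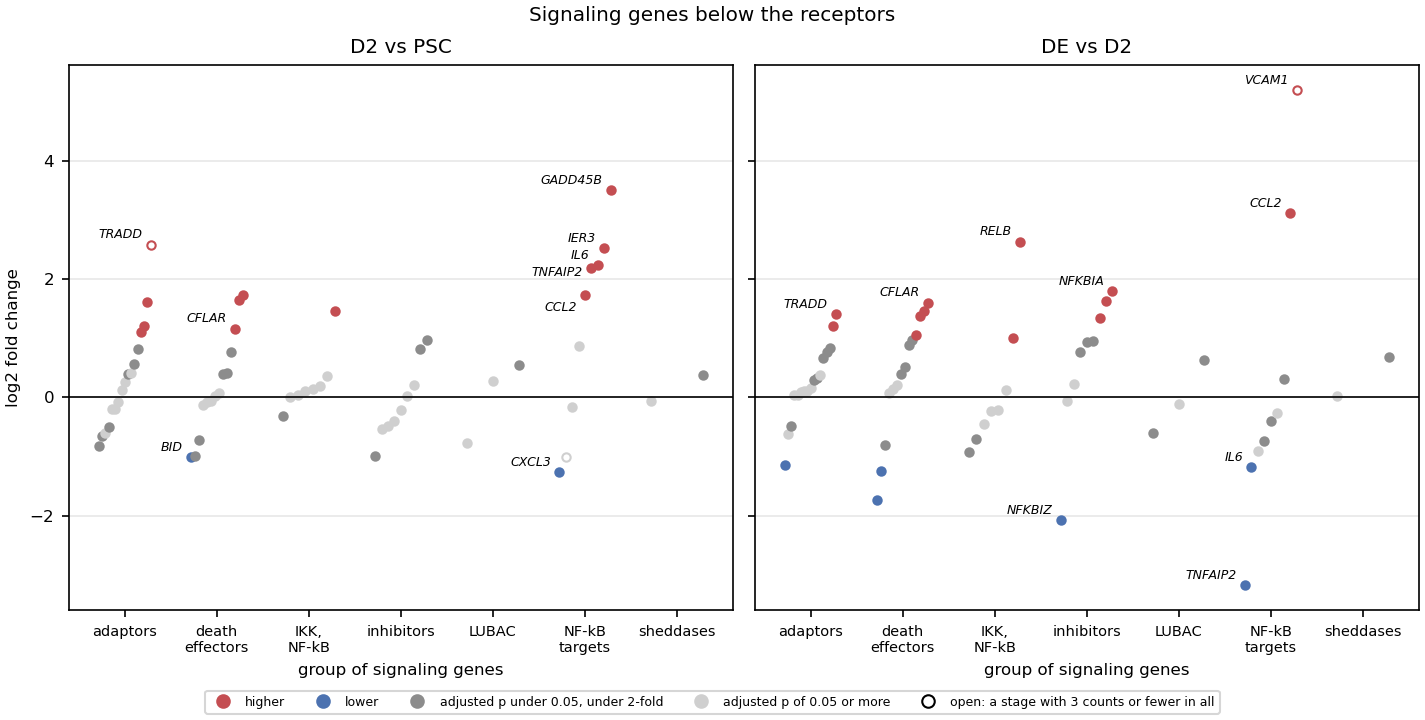
Log2 fold change (y axis) of the 62 tested signaling genes by group (x axis), at D2 against PSC (left) and in DE against D2 (right), with 1 point per gene. Targets of NF-kB spread widest, from *TNFAIP2* at -3.18 to *VCAM1* at 5.2 in DE against D2, and open points have a stage with at most 3 counts in all.

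Among adaptors, *TRADD* had 2 and 0 counts in PSC, 10 and 5 at D2, and 17 and 25 in DE, with a ratio of D2 to PSC of 6.59 (interval 1.53 to 59.4, edgeR adjusted p = 0.0271) that was lost without PSC replicate 2 (0.309, with a ratio of 2.79), without D2 replicate 1 (0.216, with a ratio of 4.37) and by DESeq2 (0.135), and PSC was at 0 without PSC replicate 1. Its rise from D2 to DE, 2.66-fold (adjusted p = 0.0219), or 4.00-fold without D2 replicate 1, was likewise lost without D2 replicate 2 (0.212), without DE replicate 2 (0.231) and by DESeq2 (0.23). Of the death effectors, *BID*, which links death receptors to mitochondria, had 406 and 594 counts in PSC and 275 and 287 at D2, a fall of 2.02-fold (adjusted p = 7.74e-08), and 294 and 347 in DE. This fall lay at the 2-fold limit and was under it by library size alone (log2 -0.90), with at least 10 counts in every library (-0.98), without PSC replicate 2 (-0.96) and without D2 replicate 1 (-0.99). *CFLAR*, an inhibitor of caspase 8 at the receptor, rose at both steps, with 194 and 283, 650 and 564, and 1956 and 1883 counts, and it is named here after its values were seen.

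Of the 14 NF-kB target genes 9 were tested, and 5 rose and 1 fell at D2, beside 14.3% and 8.03% of all tested genes. *GADD45B* had 46 and 80 counts in PSC, 870 and 762 at D2, and 479 and 534 in DE, an 11.4-fold rise at D2 (adjusted p = 3.12e-17). *IER3* rose 5.77-fold (192 and 232 counts to 1414 and 1384, adjusted p = 6.54e-17), and *IL6* rose 4.71-fold from 4 and 4 to 22 and 22 counts (adjusted p = 0.00105). These rises were not shared by *CXCL3*, which fell 2.41-fold from 45 and 61 to 25 and 25 counts (adjusted p = 8.55e-04). In DE against D2, *CCL2* rose 8.70-fold to 2526 and 2536 counts (adjusted p = 1.08e-19), and *VCAM1* went from 1 and 0 counts to 28 and 20, a ratio of 46.1 (interval 7.88 to 1857, adjusted p = 3.07e-06), or 23.0 without D2 replicate 2, and D2 was at 0 without replicate 1. *TNFAIP2* went from 46 and 79 counts in PSC to 309 and 338 at D2 and 36 and 38 in DE, a 9.08-fold fall (adjusted p = 1.08e-14). The subunit *RELB* of the noncanonical NF-kB dimer rose 6.21-fold from D2 to DE, from 17 and 5 to 78 and 66 counts (adjusted p = 1.31e-06), or 13.6-fold without D2 replicate 1 and 4.02-fold without D2 replicate 2, and *NFKBIZ*, an atypical inhibitor, fell 4.23-fold from 86 and 85 to 29 and 13 (adjusted p = 2.1e-07), or 6.53-fold without DE replicate 1.

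Of the superfamily genes outside the definition that were tested besides *EDA*, *RELL1* had 21 and 36 counts in PSC, 72 and 76 at D2, and 65 and 35 in DE and rose 2.29-fold at D2 (adjusted p = 8.48e-04). *RELL2* fell 4.72-fold from D2 to DE, from 73 and 87 to 10 and 25 counts (adjusted p = 3.38e-07), or 8.36-fold without DE replicate 2. *RELT* had 58 and 91, 53 and 71, and 35 and 37 counts and was 2.44-fold lower in DE than in PSC (adjusted p = 4.45e-05).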

How the data were processed

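RNA-seq counts of 6 HUES8 libraries, 2 at each of the stages PSC, D2 and DE, were used. The authors deposited raw counts per gene symbol beside gene lengths, and the count columns were mapped to stages by their labels. The submitters' processing notes name HISAT2 2.1.1, featureCounts and the build GRCh38. The gene annotation, strand setting and treatment of multi-mapped reads are not given in the sources used here. Overlaps of exons are therefore given beside the members most affected.

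Of 59050 symbols, 21221 had no count, and 18126 passed filterByExpr with stages as groups. Counts were analysed in edgeR 4.0.16 (R 4.3.3, limma 3.58.1) with TMM factors of 0.926 to 1.06, glmQLFit and glmQLFTest on all 6 libraries (3 residual degrees of freedom, common biological coefficient of variation 0.0734) and Benjamini-Hochberg adjustment over all tested genes. Genes were called, written as rose or fell, at 2-fold or more with an adjusted p under 0.05. Adjusted p-values in the text are from edgeR unless DESeq2 is named. Where a stage held 1 to 3 counts in all, the ratio of summed normalised counts is given with an exact 95% interval, which covers counting error only. CPM are TMM-scaled, sums over marker lists are in CPM, and members were ranked against each other per kilobase of the deposited length. The depth was 12351684 to 15970973 counts per library, at which 3 counts are 0.183 to 0.263 CPM.

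The members and lists were chosen with earlier results of these data known. Every member is named, and values in all libraries are given for *TNFRSF8*, its ligand, the up to 5 largest called rises and falls of each comparison with a stage mean of at least 1 CPM, and the 3 most abundant members per kilobase at each stage. Up to 3 called signaling genes per direction and comparison were chosen by the same rule, and some genes of these lists are not reported here.

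Alternatives were DESeq2 1.42.0, library size alone, DESeq2 size factors in edgeR, no mtDNA-encoded genes, no filter, at least 10 counts in every library, the replicate block, the 2 compared stages alone, the 2-fold and TPM limits of the study, applied here to mean TPM + 0.1 with a mean TPM above 2 in 1 stage, and each library left out in turn. Promoters were taken from RefSeq, and positions and exon overlaps from GENCODE version 44. Tables and figures were made with Python 3.11.15, pandas 2.3.3, numpy 2.4.6 and matplotlib 3.10.9.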

Additional observations from a re-analysis of the deposited data

How the results depend on the processing

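With 2 libraries per stage and 3 residual degrees of freedom, only large changes can be called, and members under about 10 counts are limited by depth. Requiring at least 10 counts in every library removes members near 0 at any stage. Fewer members and signaling genes are then tested, and the number tested and the share of all genes called are not reported here. This filter left 6 higher and 0 lower members at D2 against PSC, 2 and 7 in DE against D2, and 3 and 1 in DE against PSC. The TPM rule gave 6 higher members at D2 against PSC, 6 lower in DE against D2, and 6 higher and 2 lower in DE against PSC, where DESeq2 gave 3 lower. For the TPM rule and DESeq2 the cause was not tested. Signaling genes lower at D2 numbered 1 by library size alone, the filter of 10 or the TPM rule, and 4 with DESeq2 size factors, without a filter or in DESeq2. In DE against D2, 8 signaling genes were higher under the filter of 10 and 3 lower by the TPM rule, and in DE against PSC 5 were lower without a filter.

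Leaving out each library in turn gave 11 to 12 higher and 1 to 1 lower members at D2 against PSC, 4 to 5 and 9 to 13 in DE against D2, and 9 to 10 and 4 to 6 in DE against PSC. For signaling genes the ranges were 11 to 15 and 2 to 3, 11 to 15 and 6 to 8, and 16 to 19 and 4 to 6. Replicate numbers did not pair the libraries, as the correlation of their deviations was -0.0109, -0.0432 and -0.0383 between stages. With the replicate number as a block, the counts of higher and lower members were 13 and 1 from PSC to D2, 4 and 12 in DE against D2, and 10 and 5 in DE against PSC, and 12 and 3, 13 and 6, and 17 and 3 signaling genes. Among single genes, 1562 of 1661 values under an alternative kept their direction and their side of the adjusted p threshold, 65 lost it, 9 gained it and 25 changed sign, all of the last with values that had not passed the call rule.

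Changes of sign at D2 against PSC were *TNFRSF13C* at 0.0268 and *EDA2R* at 0.0219 (log2) by library size alone. Without 1 library, *FAS* ranged from -0.4782 to 0.0434, *TNFSF13* from -0.2593 to 0.4432, *TNFRSF13C* from -0.2925 to 0.2226, *EDA2R* from -0.2989 to 0.1097 and *RELB* from -1.0088 to 1.011. In DE against D2, *TNFSF12* was 0.0093 with DESeq2 size factors, 0 without mtDNA-encoded genes, 0.0282 without a filter and 0.0327 in DESeq2, and -0.3518 to 0.2987 without 1 library. There *TNFRSF25* ranged from -0.6581 to 0.0145, *TNFRSF13B* from -0.5876 to 0.0107, *TNFRSF13C* from -0.2782 to 0.0286 and *BID* from -0.0161 to 0.3017. In DE against PSC, *TNFRSF10C* ranged from -0.0364 to 1.4335, *TNFRSF10D* from -0.0321 to 0.3254 and *TNFRSF13C* from -0.4162 to 0.1012. The cause was not tested.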

Other observations

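The neighbors of the most changed members were looked at after the values of the members were known. *DHRS3*, a retinaldehyde reductase gene near *TNFRSF8*, had 44 and 47 counts in PSC, 7 and 17 at D2, and 61 and 65 in DE. It fell 4.32-fold at D2 (edgeR, adjusted p = 1.79e-05) and rose 5.00-fold in DE (adjusted p = 1.65e-06), unlike the steady drop of *TNFRSF8*. *MFN2*, a mitochondrial fusion gene in the same region, stayed between 420 and 696 counts, and *VPS13D* between 164 and 191.

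*EPSTI1*, near *TNFSF11*, went the opposite way to that ligand, from 28 and 30 counts in PSC to 158 and 196 at D2 and 4670 and 4863 in DE, 138-fold above PSC (edgeR, adjusted p = 4.81e-24). *AKAP11*, the neighbor encoding an anchor of protein kinase A, was 2.45-fold lower in DE than in PSC (adjusted p = 1.98e-10), with 862 and 1124, 565 and 779, and 532 and 432 counts. *RHOBTB2*, which overlaps *TNFRSF10B* on the opposite strand, had 23 and 21 counts in PSC, 107 and 111 at D2, and 63 and 33 in DE, a 4.31-fold rise at D2 (adjusted p = 3.73e-07) and a 2.37-fold fall in DE (adjusted p = 7.41e-05). Whether reads were shared between the overlapping genes was not tested.

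Of the 9 inhibitors of NF-kB, 3 rose and 1 fell from D2 to DE, beside 12.4% and 16.1% of all tested genes. *NFKBIA*, which holds NF-kB in the cytoplasm, had 174 and 275 counts in PSC, 483 and 508 at D2, and 1913 and 1680 in DE, was 1.95-fold higher at D2 than in PSC (edgeR, adjusted p = 7.57e-08) and rose 3.48-fold from D2 to DE (adjusted p = 9.86e-15). *TNFAIP3*, which encodes the deubiquitinase A20, had 49 and 52, 34 and 24, and 99 and 88 counts, was 1.99-fold lower at D2 (adjusted p = 0.00354) and rose 3.08-fold from D2 to DE (adjusted p = 3.16e-06). Both were named after their values were seen.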
